A study of Mus musculus with 6 samples.

Results

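CC chemokines are small secreted proteins with a pair of adjacent cysteines near their start, and they guide leukocytes by binding G protein-coupled receptors of the CCR family. In the injured lung they are known for drawing monocytes, lymphocytes and eosinophils out of the blood, and macrophages of the air spaces are among their sources. The levels of 10 of their genes (Ccl2, Ccl3, Ccl4, Ccl5, Ccl6, Ccl7, Ccl8, Ccl9, Ccl12 and Ccl24) were followed through the sequenced mRNA of mouse lavage cells. The members were taken by symbol from the 34745 genes of the deposited table, and all 10 were found.

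The libraries came from cells of bronchoalveolar lavage (a washing of the air spaces) labelled as alveolar macrophages. There were 3 libraries from Phlpp1-deficient mice (KO) and 3 from wild-type (WT) mice. PHLPP1 is a phosphatase known to remove activating phosphates from the kinase Akt. All 6 libraries came from bleomycin-treated mice (5 mg per kg) at day 7, and bleomycin is a lung toxin from which fibrosis develops. How the Phlpp1 allele was made, and the strain, age and number of mice behind a library, are not given in the sources used here. Saline-treated mice were not analysed here. The comparison of KO with WT asks how loss of Phlpp1 goes together with these genes after injury.

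Libraries held 13340861 to 15843764 counts. Whether each stems from its own animal is not stated, so a p-value here sets the genotypes against library-to-library spread that may be technical. Phlpp1 itself had 23.2, 21.6 and 17.7 CPM in KO libraries 1, 2 and 3, and 30.3, 25.3 and 28.5 CPM in WT libraries 1, 2 and 3 (CPM are counts scaled to the TMM-adjusted library total). The groups did not overlap, but the gene did not pass the test (edgeR adjusted p = 0.62), and the labels do not describe the deleted part. The labelled cell type showed in its markers: 14 genes of resident alveolar macrophages summed to 5489 to 10670 CPM in KO and 5237 to 7258 CPM in WT libraries. Chil3 gave a large part of these sums, with 3295, 6677 and 5334 CPM in KO libraries 1, 2 and 3. In WT libraries 1, 2 and 3 it had 2702, 5044 and 2244 CPM. WT library 2 had the highest sum of the WT libraries but the lowest mean log2 CPM of the list (6.62). Markers of other cells were present as well. The 16 neutrophil markers summed to 5728, 8325 and 1452 CPM in KO libraries 1, 2 and 3, and to 1223, 11318 and 2426 CPM in WT libraries 1, 2 and 3. The 10 T cell markers summed to 933 to 1503 CPM in KO and 1012 to 1244 CPM in WT libraries. In such bulk RNA, fewer cells of a type and less RNA per cell cannot be told apart.

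The members' genes sit in close groups, and the coding bases around the paired cysteines are shown for both groups. Of the 10, 9 lie on chromosome 11 (GRCm38, plus or minus strand as given here) and Ccl24 lies on chromosome 5. Ccl2, Ccl7, Ccl12 and Ccl8 share 81.2 kb, from 82035571 to 82116799, all on the plus strand. Ccl5, Ccl9, Ccl6, Ccl3 and Ccl4 share 138.9 kb, from 83525778 to 83664683, with Ccl4 alone on the plus strand. The 30 coding bases below come from exon 2 of 5 members in the GENCODE M21 transcripts. They show the first chromosomal group beside a gene of the other, and the capitals mark both cysteine codons:
Ccl2: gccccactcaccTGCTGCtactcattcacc
Ccl7: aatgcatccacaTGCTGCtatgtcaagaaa
Ccl12: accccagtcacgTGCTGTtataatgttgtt
Ccl8: gctccagtcaccTGCTGCtttcatgtacta
Ccl4: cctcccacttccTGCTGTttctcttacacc
They lie at chr11:82036494-82036523, chr11:82046526-82046555, chr11:82102622-82102651, chr11:82116044-82116073 and chr11:83663470-83663499 on the plus strand, in the order shown.

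Among aligned coding bases, gaps left out, 72.4% of 290 were identical between Ccl2 and Ccl7, 71.4% of 273 between Ccl3 and Ccl4, 70.8% of 291 between Ccl8 and Ccl12 and 70.6% of 344 between Ccl6 and Ccl9. With gaps counted, identity was 46.6% for Ccl2 and Ccl7, 68.4% for Ccl3 and Ccl4, 64.8% for Ccl8 and Ccl12 and 64.6% for Ccl6 and Ccl9. Other pairs were about as alike without gaps, such as Ccl2 and Ccl8 (70.5%) and Ccl3 and Ccl12 (70.1%). The longest identical run shared by the transcripts of any 2 members was 25 bases, between Ccl6 and Ccl9. A search of all transcripts for stretches of at least 150 bases at 95% identity or more found none for 9 members. Ccl9 shared such stretches with 7 genes, the longest of 163 bases with Baz1b, so part of its count is uncertain. Genes annotated on the opposite strand overlap Ccl2 (Gm17268) and Ccl6 (E230016K23Rik). Since the strand setting of the counting is not stated, reads of these pairs cannot be told apart.

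Per length of gene, Ccl6 was the leading transcript by far. Levels are compared between genes as FPKM, the authors' deposited values, which divide counts by gene length and library total. The mean over the 6 libraries was 884 FPKM for Ccl6, a mouse chemokine of macrophages and other myeloid cells that binds CCR1. It was followed by Ccl5 (172 FPKM), Ccl3 (136), Ccl7 (98.2), Ccl9 (92.6), Ccl2 (77.8), Ccl4 (50.2), Ccl12 (17.7), Ccl8 (5.51) and Ccl24 (2.499 FPKM). Only Ccl6 had a range, 497 to 1203 FPKM, that did not reach the range of the next gene. From Ccl5 down, each neighbour in this order overlapped the next. Within a library Ccl4 exceeded Ccl12 in 6 of 6 and Ccl8 exceeded Ccl24 in 6 of 6, whereas Ccl3 exceeded Ccl7 in only 3 of 6 and Ccl9 exceeded Ccl2 in only 3 of 6.

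The order depends on the gene length behind the FPKM. For Ccl2 the deposited values imply a length of 1909 bases, 2.35 times its coding transcript of 813 bases, and for Ccl7 they imply 801 bases, the length of its transcript. Divided by the length of the coding transcript instead, Ccl2 ranked 3 of 10 at 184 CPM per kilobase, ahead of Ccl3 at 136 and Ccl7 at 98.7 CPM per kilobase. Ccl6 and Ccl5 kept the first and second places.

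The summed level of the 10 genes was much the same in both genotypes, while its make-up differed between libraries. It was 1548 ± 242 FPKM in KO and 1526 ± 342 FPKM in WT libraries (SD, n = 3 each). Ccl6 held 39.1%, 57.3% and 70.9% of it in KO libraries 1, 2 and 3, and 62.0%, 50.1% and 58.6% in WT libraries 1, 2 and 3. Ccl3 held 19.3%, 13.2% and 4.80% in KO libraries 1, 2 and 3, and 5.92%, 6.70% and 5.02% in WT libraries 1, 2 and 3. The KO libraries thus spanned a wider range of mixtures than the WT libraries for both genes.

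**Figure D1:**
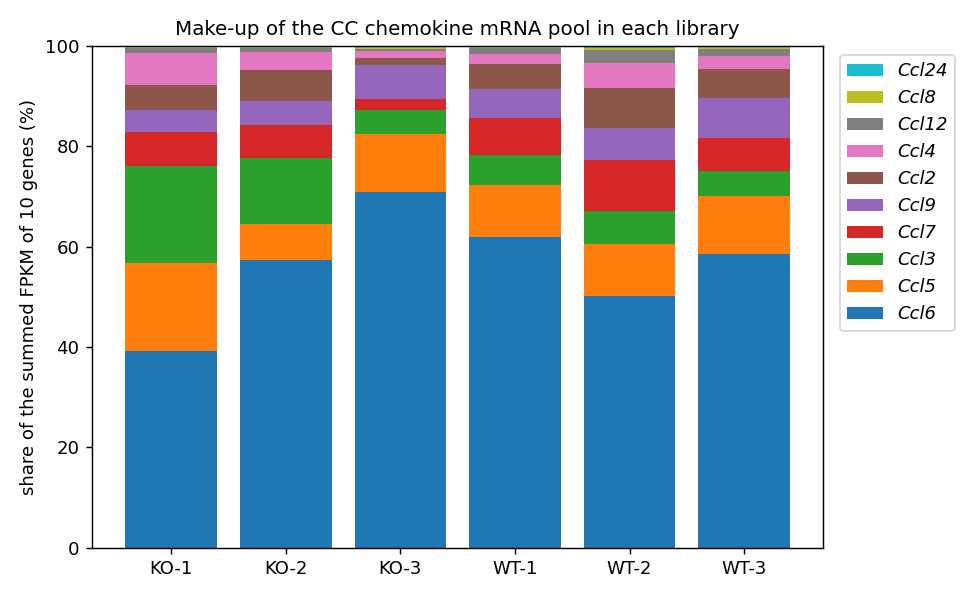
Each bar is a library (KO left, WT right) and each colour the share, in percent, of a gene in the summed FPKM of the 10 CC chemokine genes. Ccl6 is the largest share in every library, from 39.1% in KO library 1 to 70.9% in KO library 3, and the Ccl3 share is largest in KO libraries 1 and 2.

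No member passed the test between the genotypes, and the 10 genes fell into several patterns over the libraries. With edgeR's quasi-likelihood test 0 of 10 were called, against 0.0997% of all 14037 tested genes (14 genes, 0.0499% of all higher and 0.0499% lower in KO). DESeq2 and limma-voom also called 0 of 10, against 1.02% and 0.164% of all genes in that order. At an unadjusted p under 0.05 there were 2 of 10, Ccl12 lower and Ccl3 higher in KO, against 6.96% of all genes. The groups did not overlap for 1 of 10, Ccl12, against 11.1% of all genes (6.53% lower and 4.57% higher in KO). The log2 difference was below 0 for 5 of 10, against 54.3% of all genes, and its median was -0.15 over the members and -0.02 over all genes. All 10 passed the filter on low counts.

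**Figure D2:**
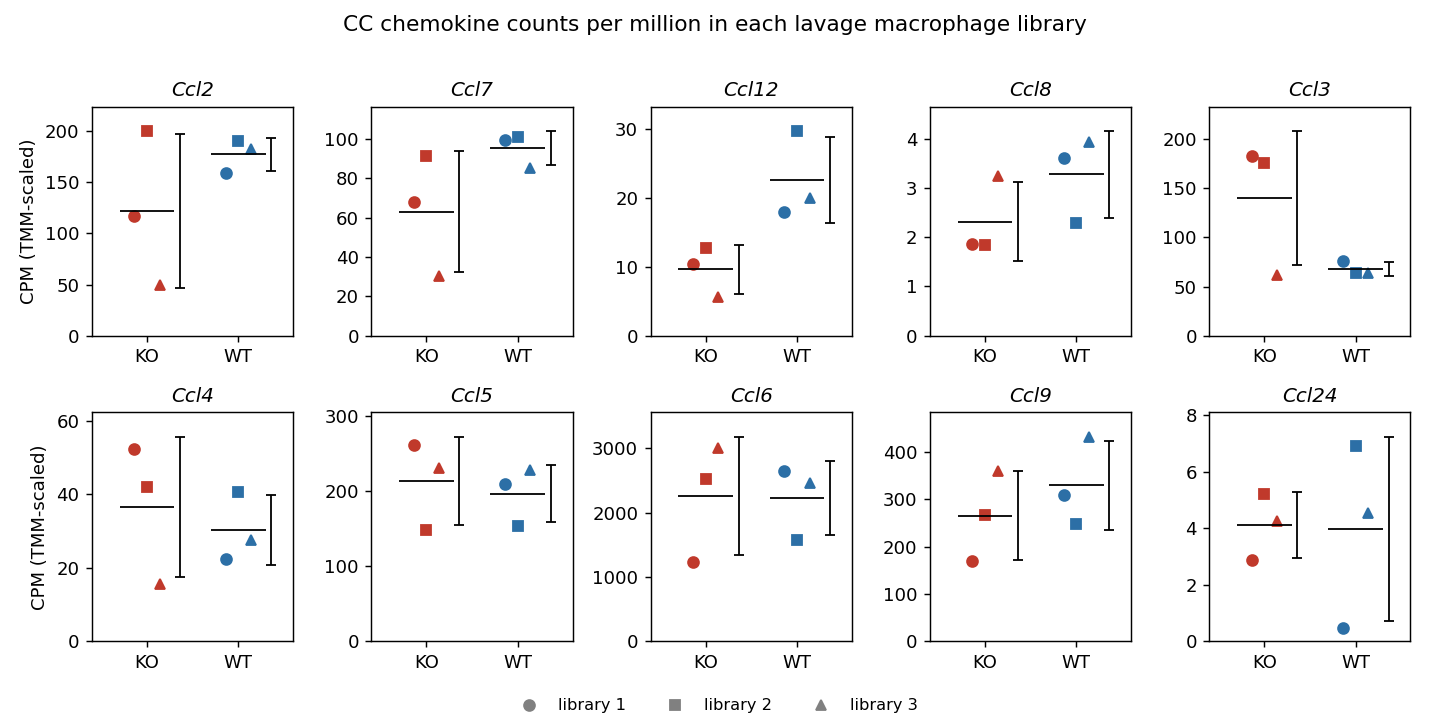
Each panel plots CPM of a gene in the 3 KO (left, red) and 3 WT (right, blue) libraries, with a line at the mean and a bar of 1 SD. Every KO value of Ccl12 lies below every WT value, and Ccl3 is above 170 CPM in KO libraries 1 and 2 only.

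The monocyte attractants come first, the ligands of CCR2. Ccl12, a mouse ligand of CCR2 that attracts monocytes, was lower in KO cells in every library. It had 10.5, 12.8 and 5.67 CPM in KO libraries 1, 2 and 3, against 18.05, 29.7 and 20.0 CPM in WT libraries 1, 2 and 3. Its raw counts were 397 over the KO and 970 over the WT libraries. The groups did not overlap: the highest KO library lay below the lowest WT library, and WT library 2 stood above the other two. The log2 difference was -1.23 (SE 0.33, 95% interval -2.01 to -0.45), a KO level 0.427 times that of WT. It did not pass over all genes (edgeR p = 0.00728, adjusted p = 0.442), and an exact two-sided permutation test gave p = 0.1, the smallest that 3 against 3 allows. Ccl12 passed once the mean of the neutrophil markers entered the fit as a covariate (log2 difference -1.46, edgeR adjusted p = 0.0368), and over all alternatives its adjusted p ranged from 0.0368 to 1.

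Ccl2, the main monocyte chemoattractant and also a CCR2 ligand, had 117, 199.9 and 49.2 CPM in KO libraries 1, 2 and 3, against 159, 191 and 182 CPM in WT libraries 1, 2 and 3. The WT values lay close together, while KO libraries 2 and 3 held the highest and the lowest of the 6. Its log2 difference was -0.54 (SE 0.44, interval -1.59 to 0.51, edgeR adjusted p = 0.979), and it was -0.14 without KO library 3 and -1.09 without KO library 2. Ccl7, which attracts monocytes through CCR2 as well as other receptors, had 67.7, 91.1 and 30.1 CPM in KO libraries 1, 2 and 3, against 99.3, 101 and 85.2 CPM in WT libraries 1, 2 and 3. KO library 3 was again the lowest and KO library 2 reached into the WT range. The log2 difference was -0.60 (SE 0.36, interval -1.45 to 0.26, edgeR adjusted p = 0.90), and -0.24 without KO library 3 and -0.96 without KO library 2.

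Ccl8, which in mice acts mainly on CCR8, was scarce. It had 1.86, 1.84 and 3.24 CPM in KO libraries 1, 2 and 3, against 3.61, 2.28 and 3.94 CPM in WT libraries 1, 2 and 3, from 95 and 148 raw counts in all. Here KO library 3 was the highest of the KO libraries, unlike in its 3 neighbours on the chromosome. Its log2 difference was -0.51 (SE 0.36, adjusted p = 0.942 by edgeR). All 4 genes of this chromosomal group had a difference below 0, from -1.23 to -0.51, whereas 1 of the 5 genes of the other group did. These counts describe genes next to each other in the same libraries and carry no test.

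Markers of monocytes and monocyte-derived macrophages lay below 0 as well, but the mean of the list did not follow the CCR2 ligands library by library. All 16 had a log2 difference below 0 (median -0.72), against 54.3% of all genes. Of the 16, 7 had an unadjusted p under 0.05 by edgeR, against 6.96% of all genes, and 0 were called, against 0.0997%. Their summed level was 5116 to 10693 CPM in KO and 7101 to 12540 CPM in WT libraries, and none was at 0 in every library. The mean log2 CPM of the list was 7.14, 7.40 and 7.52 in KO libraries 1, 2 and 3, and 7.95, 7.90 and 8.36 in WT libraries 1, 2 and 3. The list mean did not overlap between the genotypes, as with Ccl12, so list and genotype cannot be told apart. With the list mean as a covariate the log2 difference of Ccl12 was -1.93 (adjusted p = 0.928 by edgeR). KO library 3, lowest in Ccl2, Ccl7 and Ccl12, had the highest list mean of the KO libraries.

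Promoter sequence is shown for Ccl12, the member with groups apart, and for its neighbour Ccl8, whose groups overlapped. The 300 bases run from 250 before to 50 after the start in RefSeq (GRCm38.p6, plus strand), at chr11:82101595-82101894 for Ccl12 and chr11:82114935-82115234 for Ccl8, and capitals mark TATAAA:
Ccl12: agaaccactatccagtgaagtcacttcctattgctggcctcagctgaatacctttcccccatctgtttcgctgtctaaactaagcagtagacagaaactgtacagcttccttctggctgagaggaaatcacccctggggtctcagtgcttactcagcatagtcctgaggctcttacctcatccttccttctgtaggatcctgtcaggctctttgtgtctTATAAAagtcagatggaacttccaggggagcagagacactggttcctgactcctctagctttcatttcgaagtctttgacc
Ccl8: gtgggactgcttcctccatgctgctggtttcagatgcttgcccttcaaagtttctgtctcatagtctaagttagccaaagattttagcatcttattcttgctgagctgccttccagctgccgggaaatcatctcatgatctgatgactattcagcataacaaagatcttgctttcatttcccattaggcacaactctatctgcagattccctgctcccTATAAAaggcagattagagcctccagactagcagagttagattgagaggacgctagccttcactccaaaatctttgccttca
TATAAA, searched on both strands, is in 13.6% of 32817 promoter windows of this length and in 3 of the 5 members that the RefSeq table holds (Ccl3, Ccl6, Ccl8, Ccl9 and Ccl12). TGANTCA, a motif of AP-1 that reads alike on both strands, is in 7.81% of windows and, among the 5 members, in Ccl9 only. The Ccl12 and Ccl8 windows are 65.0% identical over 277 aligned bases.

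Ccl3 and Ccl4, inflammatory chemokines that activated macrophages release quickly, were high in 2 of the KO libraries. Ccl3 had 183, 176 and 61.4 CPM in KO libraries 1, 2 and 3, against 76.1, 63.5 and 63.4 CPM in WT libraries 1, 2 and 3. KO library 3 was below all WT libraries, so the groups overlapped. KO stood above WT by 1.05 on the log2 scale (SE 0.39, interval 0.13 to 1.96, adjusted p = 0.62 by edgeR). Without KO library 3 Ccl3 passed, at a log2 difference of 1.42 (edgeR adjusted p = 0.0423), and over all alternatives its adjusted p ranged from 0.0423 to 1. With the monocyte list mean as a covariate its log2 difference was 0.08. Ccl4 had 52.4, 41.8 and 15.5 CPM in KO libraries 1, 2 and 3, against 22.4, 40.7 and 27.5 CPM in WT libraries 1, 2 and 3. The same KO library was lowest, and WT library 2 came close to KO library 2. The log2 difference was 0.28 (SE 0.44, interval -0.76 to 1.31, edgeR adjusted p = 1), and it was -0.07 without KO library 1.

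Genes induced through NF-kB and immediate early genes followed the same libraries. The NF-kB list (15 genes, among them Tnf, Il1b and Nfkbia) had a mean log2 CPM of 8.20, 7.93 and 5.16 in KO libraries 1, 2 and 3, and 5.18, 5.78 and 5.13 in WT libraries 1, 2 and 3. Of the 15, 13 had a difference above 0, while 54.3% of all genes lay below 0. By edgeR 11 had an unadjusted p under 0.05, against 6.96% of all genes, and 0 were called, against 0.0997%. Summed, the 15 ranged from 1336 to 12321 CPM in KO and from 1049 to 2906 CPM in WT libraries. All 12 immediate early genes had a difference above 0, and 0 were called, against the same shares of all genes. They had sums of 1484 to 9153 CPM in KO and 1032 to 1941 CPM in WT libraries. In both lists KO libraries 1 and 2 stood above the other 4 libraries, as for Ccl3. No gene of either list was at 0 in every library, and their part in the Ccl3 result was not tested. Ccl2 and Ccl7 did not follow these lists, since WT libraries matched or exceeded KO library 1 for both.

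**Figure D3:**
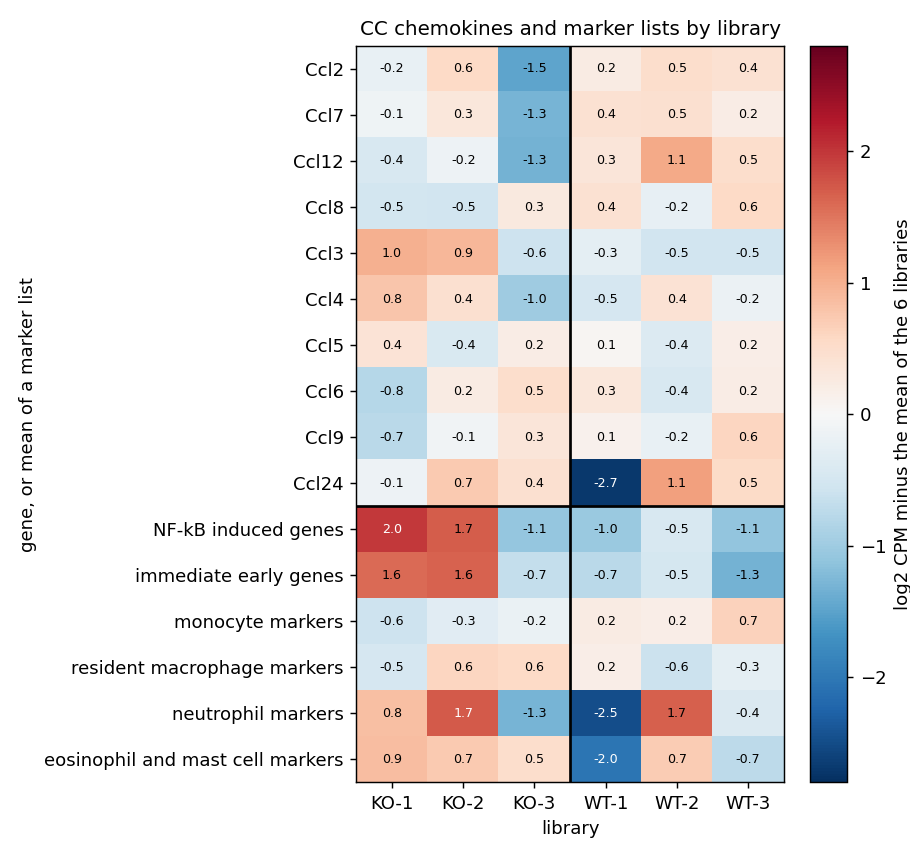
Each cell gives log2 CPM of a gene (or the mean over a marker list) minus its mean over the 6 libraries, with KO columns left of WT columns. Ccl3 and the NF-kB and immediate early lists share high values in KO libraries 1 and 2, and Ccl2, Ccl7 and Ccl12 share their lowest value in KO library 3.

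Neighbouring genes kept their ratio in some pairs and not in others. For 4 pairs next to or near each other on chromosome 11 the log2 ratio of FPKM was taken within each library. Ccl2 to Ccl7 was nearly constant, at -0.37 ± 0.22 in KO and -0.36 ± 0.21 in WT libraries (SD, n = 3 each), although each gene alone varied over 3-fold. Ccl3 to Ccl4 was 1.59, 1.85 and 1.77 in KO libraries 1, 2 and 3, against 1.55, 0.43 and 0.99 in WT libraries 1, 2 and 3. All 3 KO values lay above all 3 WT values, KO library 3 included, with a difference of 0.75. The exact two-sided permutation p was 0.1, the smallest possible, and 0.4 after Benjamini-Hochberg adjustment over the 4 ratios. Ccl6 to Ccl9 (difference 0.29, exact permutation p = 0.3) and Ccl8 to Ccl12 (difference 0.76, exact permutation p = 0.6) overlapped between the genotypes.

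**Figure D4:**
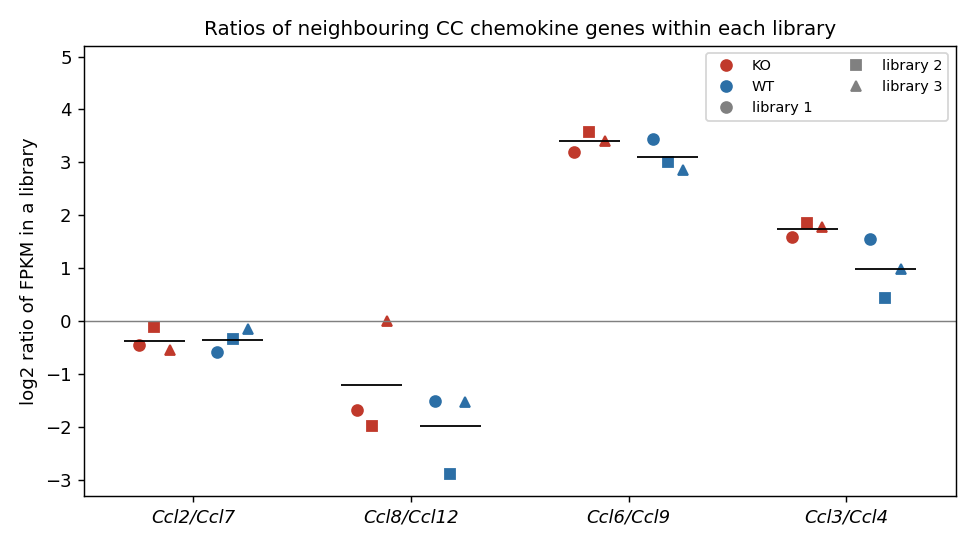
Points give the log2 ratio of FPKM of 2 neighbouring genes in each KO (red, left) and WT (blue, right) library, with lines at the group means. Ccl2/Ccl7 sits between -0.58 and -0.12 in all 6 libraries, and the Ccl3/Ccl4 ratios of KO, from 1.59 to 1.85, lie above those of WT.

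Ccl5, Ccl6 and Ccl9 did not separate by genotype. Ccl5, a ligand of CCR1 and CCR3 that T cells and NK cells also make, had 261, 149 and 231 CPM in KO libraries 1, 2 and 3, against 209, 154 and 228 CPM in WT libraries 1, 2 and 3. Both number 2 libraries were the lowest, and the groups overlapped fully. Its log2 difference was 0.12 (SE 0.26, interval -0.48 to 0.72, edgeR adjusted p = 1). The 10 T cell markers summed to 1503, 933 and 1366 CPM in KO libraries 1, 2 and 3, and to 1244, 1012 and 1181 CPM in WT libraries 1, 2 and 3. The order of the libraries was that of Ccl5 except for WT libraries 1 and 3. Of these markers 8 of 10 had a difference above 0, while 54.3% of all genes lay below 0. The 9 NK cell markers all had a difference below 0, with sums of 117 to 209 CPM in KO and 198 to 306 CPM in WT libraries. By edgeR 6 of the 9 had an unadjusted p under 0.05, against 6.96% of all genes, and 0 were called, against 0.0997%. The groups were apart and lower in KO for 5 of the 9, against 6.53% of all genes. No marker of either list was at 0 in every library, and their part was not tested.

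Ccl6 had 1232, 2526 and 3010 CPM in KO libraries 1, 2 and 3, against 2650, 1578 and 2460 CPM in WT libraries 1, 2 and 3. Ccl9, which like Ccl6 binds CCR1, had 170.1, 268 and 359 CPM in KO libraries 1, 2 and 3, against 310, 248 and 432 CPM in WT libraries 1, 2 and 3. For both genes KO library 1 was lowest and WT library 2 was the lowest of its group. The log2 difference was 0.02 (SE 0.37, interval -0.86 to 0.89) for Ccl6 and -0.31 (SE 0.32, interval -1.07 to 0.44) for Ccl9, each with an edgeR adjusted p of 1. Cd68, a lysosomal macrophage gene chosen once the Ccl6 and Ccl9 values were known, had 448, 637 and 979 CPM in KO libraries 1, 2 and 3, and 1048, 562 and 886 CPM in WT libraries 1, 2 and 3. It was lowest in the same library of each genotype as Ccl6 and Ccl9, and its part in them was not tested.

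Ccl24, an attractant of eosinophils through CCR3 that macrophages of type-2 activation make, varied most within WT. It had 2.87, 5.21 and 4.27 CPM in KO libraries 1, 2 and 3, against 0.481, 6.92 and 4.53 CPM in WT libraries 1, 2 and 3. WT library 1 held 8 raw counts and lay apart from all others, and the highest library was 14.4 times the lowest. The log2 difference was 0.06 (SE 0.76, interval -1.74 to 1.87, edgeR adjusted p = 1), and -0.47 without WT library 1. Markers of eosinophils, mast cells and basophils were also lowest in WT library 1, and so were the neutrophil markers, at 1223 CPM. The sum of the type-2 macrophage activation markers was not, at 3867 CPM there and 3740 CPM in WT library 3. Chil3 alone gave 2702 and 2244 CPM of these. By gene, Retnla (3.85 CPM), Chil4 (0.782 CPM) and Clec10a (14.1 CPM) were lowest in WT library 1, and the other genes of that list were not. The eosinophil, mast cell and basophil markers summed to 62.8, 92.2 and 59.2 CPM in KO libraries 1, 2 and 3, and to 9.81, 53.1 and 22.2 CPM in WT libraries 1, 2 and 3. The 4 of 9 that could be tested had differences above 0, while 54.3% of all genes lay below 0. None of the 9 was at 0 in every library, and their part was not tested.

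The 3 members with at least a 4-fold range over the libraries were each compared with a pool of 9166 genes. The measure was the root-mean-square difference of centred log2 CPM over the 6 libraries. The genes most like Ccl2 were Ccl7 (0.18), Cox8a (0.21) and Slc27a3 (0.26). Those most like Ccl12 were Sap30 (0.18), Socs1 (0.23) and H2afj (0.30). Socs1, an inhibitor of cytokine signalling, had 16.9, 12.1 and 6.93 CPM in KO libraries 1, 2 and 3, against 25.5, 38.4 and 25.3 CPM in WT libraries 1, 2 and 3. Those most like Ccl24 were F5 (0.46), Rap1gap2 (0.54) and Fkbp5 (0.63), at a greater distance.

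The CC receptor and decoy receptor genes were mostly higher in KO by value, and none passed the edgeR test. Several of them are receptors of ligands outside the 10 members, such as Ccr4 and Ccr6. Of those named here as receptors of members, Ccr1 (log2 difference 0.02), Ccr3 (0.26) and Ccr8 (0.51) lay above 0 and Ccr2 (-0.61) below. Of 13 receptor and decoy receptor genes 11 could be tested, and Ackr1 and Ackr4 were too low. EdgeR called 0 of 11, with 4 at an unadjusted p under 0.05 against 6.96% of all genes, and limma-voom called 0. DESeq2 called 2 (Ccr2 and Ccr9), against 1.02% of all genes. Of the 11, 10 had a log2 difference above 0 and 1 (Ccr2) below, against 54.3% of all genes below 0. The groups did not overlap for 4 of 11, with Ccr2 lower and Ccr6, Ccr8 and Ccr9 higher in KO, against 11.1% of all genes. The median log2 difference was 0.51, against -0.02 over all genes.

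Ccr2, the receptor of Ccl2, Ccl7 and Ccl12 on monocytes and 1 of the monocyte markers, had 242, 255 and 241 CPM in KO libraries 1, 2 and 3, against 367, 335 and 426 CPM in WT libraries 1, 2 and 3. The KO values were close together and the groups did not overlap (log2 difference -0.61, SE 0.16, edgeR adjusted p = 0.435, DESeq2 adjusted p = 0.0402).

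Ccr9, a receptor known for homing to the gut, averaged 24.2 ± 10.03 CPM in KO and 8.82 ± 1.58 CPM in WT (SD, n = 3 each), a log2 difference of 1.45 (edgeR adjusted p = 0.397, DESeq2 adjusted p = 0.0143). Ccr6, the Ccl20 receptor of lymphocytes and dendritic cells, averaged 41.8 ± 15.6 CPM in KO and 16.1 ± 7.77 CPM in WT (SD, n = 3 each; edgeR adjusted p = 0.498). The genotypes did not overlap for either gene. Of the 7 B cell and plasma cell markers edgeR called 0, against 0.0997% of all genes. At an unadjusted p under 0.05 by edgeR there were 5 of 7, against 6.96% of all genes. The median log2 difference of the 7 was 1.56. The groups were apart for 1 of the 7, against 11.1% of all genes. All 7 had a log2 difference above 0, while 54.3% of all genes lay below 0. The sums of the 7 overlapped, at 173 to 838 CPM in KO and 88.0 to 229 CPM in WT libraries. None of the 7 was at 0 in every library, and their part was not tested. Ccr8, the receptor of Ccl8 in mice, averaged 5.32 ± 0.698 CPM in KO and 3.72 ± 1.06 CPM in WT (SD, n = 3 each; edgeR adjusted p = 0.871).

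Ccrl2, a non-signalling receptor that presents chemerin, had 813, 590 and 73.0 CPM in KO libraries 1, 2 and 3, against 53.8, 212 and 53.0 CPM in WT libraries 1, 2 and 3. KO libraries 1 and 2 were the highest, as for Ccl3, but WT library 2 lay above KO library 3 (log2 difference 2.21, SE 0.92, adjusted p = 0.707 by edgeR). Ccr1, the receptor of Ccl3, Ccl5, Ccl6, Ccl7 and Ccl9, followed no genotype, with 552, 866 and 307 CPM in KO libraries 1, 2 and 3 and 269.9, 945 and 483 CPM in WT libraries 1, 2 and 3. It was highest in the number 2 library of each genotype, which also had the highest neutrophil marker sums of their groups. The log2 differences of Ccr3, Ccr4, Ccr7 and Ccr10 were 0.26, 0.43, 0.30 and 1.28, with overlapping groups and edgeR adjusted p-values from 0.851 to 1.

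The CC chemokine genes outside the 10 were mostly at or near 0 counts, apart from Ccl17 and Ccl22. Of 11 such genes 4 passed the filter on low counts, and Ccl11, Ccl19, Ccl21a and Ccl26 had no count in any library. EdgeR, limma-voom and DESeq2 each called 0, against 0.0997%, 0.164% and 1.02% of all genes in that order. By edgeR 2 of the 4 had an unadjusted p under 0.05, against 6.96% of all genes. Ccl17, a CCR4 ligand of dendritic cells and type-2 macrophages, had 52.2, 65.3 and 43.2 CPM in KO libraries 1, 2 and 3, against 35.3, 16.2 and 25.7 CPM in WT libraries 1, 2 and 3. Its groups did not overlap (log2 difference 1.05, SE 0.30, adjusted p = 0.467 by edgeR). Ccl22, the other CCR4 ligand, had 220.1, 196 and 122 CPM in KO libraries 1, 2 and 3, against 132, 83.9 and 109 CPM in WT libraries 1, 2 and 3. Its lowest KO value lay within the WT range (log2 difference 0.73, SE 0.27, adjusted p = 0.603 by edgeR). Of the 7 dendritic cell markers, 3 had a difference above 0, while 54.3% of all genes lay below 0. The 7 had sums of 361 to 591 CPM in KO and 322 to 476 CPM in WT libraries, and none was at 0 in every library.

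**Figure D5:**
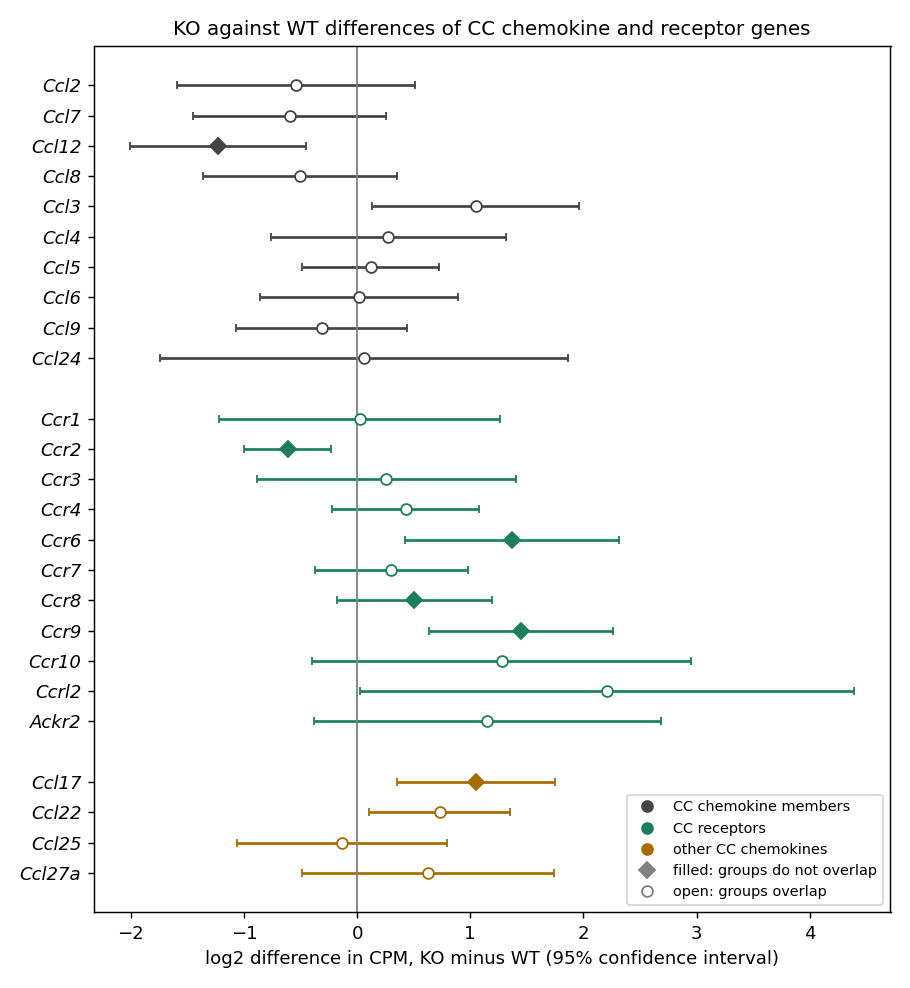
Points give the log2 difference in CPM (KO minus WT) with its 95% interval for the 10 CC chemokine members, 11 receptor genes and 4 other CC chemokines, filled where the groups do not overlap. Ccl12 and Ccr2 lie below 0 with groups apart, and Ccr6, Ccr8, Ccr9 and Ccl17 lie above 0 with groups apart.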

How the data were processed

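For 34745 genes in 6 libraries the authors deposited whole, unscaled read counts and FPKM, as named in the file headers. The deposited FPKM matched counts divided by library total and a fixed gene length in 9265 genes checked. HISAT2, StringTie 1.3.0, edgeR and mm10 are listed, without roles, in the submitters' processing notes. Strand setting and annotation are not given in the sources used here. Symbols and positions came from GENCODE M21 (GRCm38, the assembly of mm10), in which 34267 IDs were found. Libraries of a genotype differed by more than sampling noise (chi-square per gene of at least 34.4).

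Counts were tested with edgeR 4.0.16 (R 4.3.3), using filterByExpr, TMM scaling, glmQLFit (robust) and glmQLFTest, and Benjamini-Hochberg adjustment over 14037 genes at a threshold of 0.05. The standard error is the log2 difference over the square root of F. The procedure was tested on simulated data. Alternatives used DESeq2 1.42.0, limma 3.58.1, other scalings, filters and units, marker means as covariates, a replicate block, and the omission of each library. Transcripts were aligned with blastn 2.17.0. Members and gene lists were chosen with earlier results of these data known. Named are all members, each receptor or other CC chemokine of at least 1 FPKM in a group, and the 3 genes most like each member that ranged 4-fold or more. Socs1's values and Cd68 were singled out after their values were seen. Some items of the gene lists and sequences are not reported here.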

Additional observations from a re-analysis of the deposited data

How the results depend on the processing

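The 14 calls among all genes became 0 with the monocyte covariate, 1 with the replicate block, 8 with a minimum log2 difference of 1, 23 with limma-voom, 36 without a low-count filter, 49 with the neutrophil covariate and 172 with DESeq2. Leaving out a library gave 1 (without WT library 3) to 32 calls (without KO library 3). Among the members 0 were called, and 1 with the neutrophil covariate (Ccl12); leaving out a library gave 0 to 1 (Ccl3, without KO library 3). Receptors had 0 calls, and 2 with DESeq2. Log2 differences changed sign under the monocyte covariate for Ccl4 (-1.001), Ccl8 (0.46), Ccl9 (1.08), Ccr1 (-0.72), Ccr3 (-0.31), Ccr7 (-0.62), Ccr10 (-0.49), Ccrl2 (-0.97), Ackr2 (-0.77) and Ccl27a (-0.69). They did so under the neutrophil covariate for Ccl4 (-0.049) and Ccr1 (-0.28). Under the monocyte covariate Ccl3 was 0.08, Ccl6 1.17, Ccl7 -1.31 and Ccl24 0.60, with no change of sign. Ccl6, near 0, was -0.0349 with the replicate block, -0.0348 with limma-voom, -0.0304 with log2(FPKM + 1) and -0.0305 with log2(FPKM + 0.1). Leaving out a library spanned -0.074 to 0.67 for Ccl4, -0.051 to 0.32 for Ccl5, -0.24 to 0.31 for Ccl6, -0.47 to 0.74 for Ccl24, -0.40 to 0.62 for Ccr1, -0.13 to 0.87 for Ccr3 and -0.39 to 0.044 for Ccl25. The cause of these changes was not tested.

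Whether equal replicate numbers mark a shared animal or day is not stated, and so few pairs cannot settle it. For each gene the mean log2 CPM of the genotype was subtracted, and these deviations, not the levels, were correlated between libraries. Same-numbered KO and WT libraries gave -0.13, 0.33 and 0.30. KO library 1 was closest to WT library 2 (0.24), KO library 2 to WT library 2 (0.33) and KO library 3 to WT library 1 (0.34). With the replicate block Ccl12 was at -1.26 (edgeR adjusted p = 0.254) and no member was called. Ccl24 has no value under the minimum of 10 counts in every library. With 3 libraries a group the intervals are wide, and the smallest exact permutation p is 0.1.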
